A study of Mus musculus with 2 samples.

Results

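The genes described here encode chemokines and the cytokines, inflammatory effectors and feedback inhibitors that fibroblasts are known to make. Probe sets were taken where the array annotation gave a single symbol of the Ccl, Cxcl or Cx3cl series, apart from Cxcl10, or that of 13 further genes chosen by name. This gave 49 probe sets for 44 of the 19938 genes measured, 32 of them chemokines and 12 from the named genes. Il1rl1, the receptor gene for interleukin 33, was named but had no value here. The rule uses symbols and no measured value, but the members were chosen with earlier results of these data known.

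The cells were primary fibroblasts of mouse embryos (MEFs), taken at 13.5 days post coitum and grown in medium with fetal bovine serum. They had the genotype MatDup.dist7, in which both copies of distal chromosome 7 are maternal in origin, or the reciprocal genotype PatDup.dist7, in which both are paternal. Total RNA of each genotype was hybridised to 1 array, and the labels do not say how many embryos or cultures it came from. Every value below is therefore a single measurement, no difference was tested against variation between cultures, and no p-value is given.

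Chemokines are small secreted proteins that bind receptors on leukocytes and other cells and direct their migration. They are named by the spacing of conserved cysteines near the start of the mature protein, as CC, CXC and CX3C chemokines. Fibroblasts make many of them when interleukin 1, tumour necrosis factor or bacterial products activate the transcription factor NF-κB, together with interleukin 6, colony-stimulating factors and prostaglandins. The NF-κB inhibitors Nfkbia and Tnfaip3 are induced by the same factor and restrain it.

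Of the 44 genes, 6 were higher by 2-fold or more in MatDup.dist7 and 0 were higher by 2-fold or more in PatDup.dist7, a rule applied to log2(intensity + 16). The 6 make up 13.6% of the members, and over all 19938 genes 4.47% were higher by 2-fold or more in MatDup.dist7 and 3.16% in PatDup.dist7. They were the stromal chemokine gene Cxcl12, the CC chemokine genes Ccl20 and Ccl5, the colony-stimulating factor genes Csf2 and Csf3, and Lcn2, which encodes the iron-sequestering protein lipocalin 2. The other 38 lay within 2-fold. The difference, always MatDup.dist7 minus PatDup.dist7, was positive for 32 members (72.7%, against 51.4% of all genes) and negative for 12. Its median was 0.26 over the members and 0.02 over all genes.

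These counts depend on how weak signals are weighed. A signal filter was set at an intensity of 66.4, the median of all values on both arrays, and a gene lies above it if its higher value does. Of the 24 members above it, 3 (12.5%) were higher by 2-fold or more in MatDup.dist7, where 2.74% of all genes above it were so in MatDup.dist7 and 2.42% in PatDup.dist7. Of the 20 members under it, 3 (15%) were higher by 2-fold or more in MatDup.dist7, where 7.52% of all genes under it were so in MatDup.dist7 and 4.48% in PatDup.dist7. Cxcl12, Ccl20 and Ccl5 lay above the filter and Csf2, Csf3 and Lcn2 under it. Ccl20 and Ccl5 passed it only through the MatDup.dist7 array, where they are high, so the count above the filter is no support for their difference. Of the 6, only Cxcl12 had both signals above the filter. With a pseudocount of 64 in place of 16, Cxcl12 was the only member 2-fold or more apart. The share of positive differences also varied with signal. Above the filter, 15 of the 24 members were positive (62.5%, against 49.3% of all genes above it). Under it, 17 of the 20 members were positive (85%, against 55% of all genes under it).

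**Figure D1:**
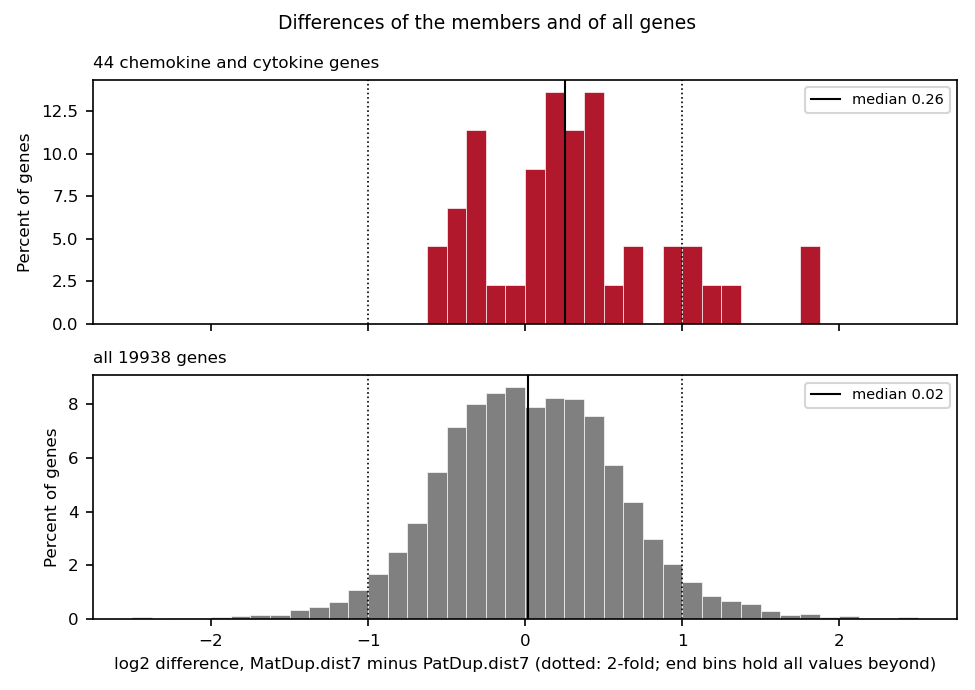
Histograms of the log2 difference, MatDup.dist7 minus PatDup.dist7, for the 44 chemokine and cytokine genes (top) and for all 19938 genes (bottom), as percent of genes per bin, with the median as a solid line and 2-fold as dotted lines. The members' median stands at 0.26 and that of all genes at 0.02, and no member lies beyond 2-fold on the PatDup.dist7 side.

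The promoter windows of Cxcl12, Ccl20, Csf2 and Lcn2, which are 2-fold or more apart, are given here because NF-κB, AP-1 and C/EBP factors are known regulators of this gene class. They are RefSeq windows of build GRCm38.p6, from 250 bases before to 50 bases after the annotated start, 5′ to 3′ on the strand of the gene. RefSeq windows were found for 32 of the 44 members. Csf3 and Ccl5, the other members 2-fold or more apart, had none. Capitals mark matches, on either strand, to the NF-κB consensus, to the AP-1 motif TGANTCA, to the C/EBP motif TTGCNNAA or to the TATA motif TATAAA. In the windows of Cxcl12, Ccl20, Csf2 and Lcn2, Ccl20 held an NF-κB match beginning 80 bases before the start, and Csf2 and Lcn2 each held a C/EBP match, beginning 145 and 216 bases before it. The Cxcl12 window held none of these letters.
Cxcl12 (chr6:117168285-117168584, plus strand): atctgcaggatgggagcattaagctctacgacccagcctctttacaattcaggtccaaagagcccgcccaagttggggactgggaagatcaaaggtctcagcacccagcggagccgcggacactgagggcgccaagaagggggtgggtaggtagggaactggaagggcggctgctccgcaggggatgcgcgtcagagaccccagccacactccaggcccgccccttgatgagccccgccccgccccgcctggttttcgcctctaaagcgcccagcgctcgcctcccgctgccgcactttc
Ccl20 (chr1:83116516-83116815, plus strand): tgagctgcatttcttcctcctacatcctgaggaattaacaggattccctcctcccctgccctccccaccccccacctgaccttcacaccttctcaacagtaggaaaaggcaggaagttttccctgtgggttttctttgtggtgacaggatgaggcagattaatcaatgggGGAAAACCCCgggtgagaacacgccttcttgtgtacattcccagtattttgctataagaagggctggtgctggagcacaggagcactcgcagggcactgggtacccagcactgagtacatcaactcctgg
Csf2 (chr11:54249850-54250149, minus strand): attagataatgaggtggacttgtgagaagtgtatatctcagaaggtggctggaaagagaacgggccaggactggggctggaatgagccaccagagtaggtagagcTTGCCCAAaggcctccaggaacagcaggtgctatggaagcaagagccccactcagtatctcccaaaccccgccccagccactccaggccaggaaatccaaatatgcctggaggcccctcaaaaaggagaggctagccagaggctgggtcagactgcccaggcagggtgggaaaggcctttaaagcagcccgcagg
Lcn2 (chr2:32387690-32387989, minus strand): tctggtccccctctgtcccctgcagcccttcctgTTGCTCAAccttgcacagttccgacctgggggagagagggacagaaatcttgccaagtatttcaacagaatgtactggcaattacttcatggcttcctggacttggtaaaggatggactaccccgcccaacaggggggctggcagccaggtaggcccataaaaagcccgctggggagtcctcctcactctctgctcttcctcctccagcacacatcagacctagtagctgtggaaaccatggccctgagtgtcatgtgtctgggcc

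The NF-κB consensus was found in the windows of 11 of the 32 members with a window (34.4%), compared with 9.55% of the 27025 genes in the table. The other motifs were found in 21.9% of the members and 8.97% of all genes (AP-1), in 21.9% and 12.2% (C/EBP) and in 37.5% and 15.7% (TATAAA). A match describes letters and not binding. Of the 11 members with the NF-κB consensus, 1, Ccl20, was higher by 2-fold or more in MatDup.dist7, against 3 of the 21 without it. Csf3 and Ccl5 had no window, so these counts cover 4 of the 6 members 2-fold or more apart. The median difference was 0.23 with it and 0.30 without it. All 7 members with a C/EBP match had a positive difference, while 18 of the 25 without a match and 51.4% of all genes did. They were Csf2, Lcn2, Il6, Saa3 and Cxcl13, all under the signal filter, and Ptgs2 and Il33. The differences of Ptgs2 (0.35) and Il33 (0.35) were smaller than the standard deviation between probe sets of 1 gene, 0.40, described below. A link between motif and difference was not tested.

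The tandem genes Cxcl1, Cxcl2 and Cxcl3 encode neutrophil-attracting chemokines and shared an NF-κB match of the same letters. Their windows are shown because the shared element stood beside differences of unlike sign, 0.23 for Cxcl1, -0.60 for Cxcl2 and -0.53 for Cxcl3. The match began 71, 97 and 73 bases before the start in Cxcl1, Cxcl2 and Cxcl3. In each window a second match overlapped it, shifted by 1 base, so the capitals there run over both.
Cxcl1 (chr5:90890995-90891294, plus strand): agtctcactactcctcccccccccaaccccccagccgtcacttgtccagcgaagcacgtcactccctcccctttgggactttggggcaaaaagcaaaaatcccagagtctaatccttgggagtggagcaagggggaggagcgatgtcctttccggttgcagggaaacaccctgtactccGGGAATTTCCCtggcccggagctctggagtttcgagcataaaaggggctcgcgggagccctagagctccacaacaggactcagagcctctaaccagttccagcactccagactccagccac
Cxcl2 (chr5:90903649-90903948, plus strand): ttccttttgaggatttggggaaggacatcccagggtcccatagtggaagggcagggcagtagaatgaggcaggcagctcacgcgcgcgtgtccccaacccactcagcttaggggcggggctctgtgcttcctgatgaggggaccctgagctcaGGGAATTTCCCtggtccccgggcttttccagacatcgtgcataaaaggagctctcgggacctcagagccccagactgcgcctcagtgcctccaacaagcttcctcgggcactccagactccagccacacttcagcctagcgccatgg
Cxcl3 (chr5:90785851-90786150, plus strand): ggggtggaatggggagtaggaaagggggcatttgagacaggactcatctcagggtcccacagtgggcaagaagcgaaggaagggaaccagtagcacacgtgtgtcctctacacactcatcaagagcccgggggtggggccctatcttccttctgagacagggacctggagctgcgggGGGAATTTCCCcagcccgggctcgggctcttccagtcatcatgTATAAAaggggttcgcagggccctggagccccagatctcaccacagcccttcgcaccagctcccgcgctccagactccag

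Among the 19 CC chemokine genes, 15 had a positive difference, 2 were higher by 2-fold or more in MatDup.dist7 and 17 lay within 2-fold, with a median of 0.26. Ccl20, which attracts cells bearing the receptor Ccr6, had an intensity of 69.5 in MatDup.dist7 MEFs and 17.4 in PatDup.dist7 MEFs, a log2 difference of 1.36. Ccl5, a chemokine for T cells and monocytes, had 118 in MatDup.dist7 MEFs and 46.5 in PatDup.dist7 MEFs, a difference of 1.10. Ccl28, known from mucosal epithelia, had 23.6 in MatDup.dist7 MEFs and 4.23 in PatDup.dist7 MEFs, a difference of 0.97 that fell short of 2-fold and rested on signals under the filter. For all 3 genes the PatDup.dist7 signal was under the filter, so the size of the difference changes with the pseudocount.

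The monocyte chemokines Ccl2 and Ccl7 stood on the other side of 0. Ccl2, the main monocyte attractant made by fibroblasts, had 264 in MatDup.dist7 MEFs and 345 in PatDup.dist7 MEFs, a difference of -0.37. Ccl7, its neighbour on chromosome 11, had 296 in MatDup.dist7 MEFs and 361 in PatDup.dist7 MEFs, a difference of -0.27. Both lay within 2-fold, as did the macrophage-associated chemokine genes Ccl3, Ccl4 and Ccl9. Ccl3 had 75.7 in MatDup.dist7 MEFs and 60.4 in PatDup.dist7 MEFs (0.26), Ccl4 had 129 and 139 in the same order (-0.09), and Ccl9 had 163 and 138 (0.21).

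The remaining CC chemokine genes with 1 probe set had positive differences under 2-fold. Ccl22, which attracts cells bearing Ccr4, had 82.4 in MatDup.dist7 MEFs and 59.0 in PatDup.dist7 MEFs (0.39), and Ccl17, its partner at that receptor, had 15.9 in MatDup.dist7 MEFs and 9.86 in PatDup.dist7 MEFs (0.30). The eosinophil chemokine genes Ccl11 and Ccl24 had 19.3 and 22.0 in MatDup.dist7 MEFs, against 10.9 and 16 in PatDup.dist7 MEFs (0.39 and 0.25). Ccl1 (0.67), Ccl12 (0.46), Ccl26 (0.39), Ccl8 (0.05) and Ccl6 (0.00) had intensities from 7.07 to 50.6 in MatDup.dist7 MEFs and from 6.30 to 34.8 in PatDup.dist7 MEFs. None of these 5 lay above the signal filter.

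For 42 members there was 1 probe set. Ccl19 and Ccl25 had 5 and 2, and in both genes the probe sets disagreed in sign. Ccl19, a lymphoid-tissue chemokine gene with closely similar copies nearby, had differences from -0.38 to 0.89, and 2 of its probe sets had the same values on both arrays, 59.9 in MatDup.dist7 MEFs and 79.4 in PatDup.dist7 MEFs. Its mean difference was 0.03. Ccl25, a thymic and intestinal chemokine gene, had 79.8 and 23.6 in MatDup.dist7 MEFs at its 2 probe sets, against 61.9 and 42.9 in PatDup.dist7 MEFs, which are differences of 0.30 and -0.57. Where the array covered a gene repeatedly, its probe sets had a standard deviation of 0.40 around the gene mean (1722 probe sets of 642 genes above the filter). It describes agreement within the arrays and not between cultures. Of the 44 members, 25 had a difference smaller than this.

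Of the 12 CXC chemokine genes, 7 had a positive difference, 1 was higher by 2-fold or more in MatDup.dist7 and 11 lay within 2-fold, with a median of 0.18. Cxcl12, the stromal chemokine that retains and recruits cells bearing Cxcr4, had 1319.8 in MatDup.dist7 MEFs and 376 in PatDup.dist7 MEFs. Its difference of 1.77, a 3.41-fold excess on the log2(intensity + 16) scale, was 1.81 and 1.65 with pseudocounts of 1 and 64. Both signals lay above the filter. Cxcl16, a membrane-bound chemokine for cells bearing Cxcr6, followed with 223 in MatDup.dist7 MEFs and 139 in PatDup.dist7 MEFs (0.62). Cxcl9, an interferon-inducible chemokine gene, had 85.9 in MatDup.dist7 MEFs and 57.5 in PatDup.dist7 MEFs (0.47), whereas Cxcl11, of the same receptor group, had 55.4 in MatDup.dist7 MEFs and 82.7 in PatDup.dist7 MEFs (-0.47).

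Cxcl14, a chemokine gene expressed in fibroblasts and epithelia, had high signal on both arrays, 2203 in MatDup.dist7 MEFs and 2825 in PatDup.dist7 MEFs, a difference of -0.36. The neutrophil chemokine genes lay within 2-fold, in both directions. Cxcl1 had 233 in MatDup.dist7 MEFs and 196 in PatDup.dist7 MEFs (0.23), and Cxcl5 had 240.4 and 190 in the same order (0.32). Cxcl3 had 153 in MatDup.dist7 MEFs and 227 in PatDup.dist7 MEFs (-0.53), and Cxcl2 had 29.5 in MatDup.dist7 MEFs and 52.9 in PatDup.dist7 MEFs (-0.60), which was the most negative difference of all 44 members. Cxcl15, a lung chemokine gene in mice, had 48.5 in MatDup.dist7 MEFs and 38.6 in PatDup.dist7 MEFs (0.24). The B cell chemokine gene Cxcl13 (0.12) and the mucosal chemokine gene Cxcl17 (-0.31) had signals under the filter on both arrays. Cxcl1, Cxcl2 and Cxcl3 are close in sequence, and signal shared between them at their probe sets was not tested.

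Cx3cl1, the only CX3C chemokine gene, encodes the membrane-anchored chemokine fractalkine. It had 259 in MatDup.dist7 MEFs and 124 in PatDup.dist7 MEFs, a difference of 0.98 just inside 2-fold. A pseudocount of 1 (1.06), or a floor at the 25th percentile of signals (1.07), put it past 2-fold. Both of its signals lay above the filter.

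**Figure D2:**
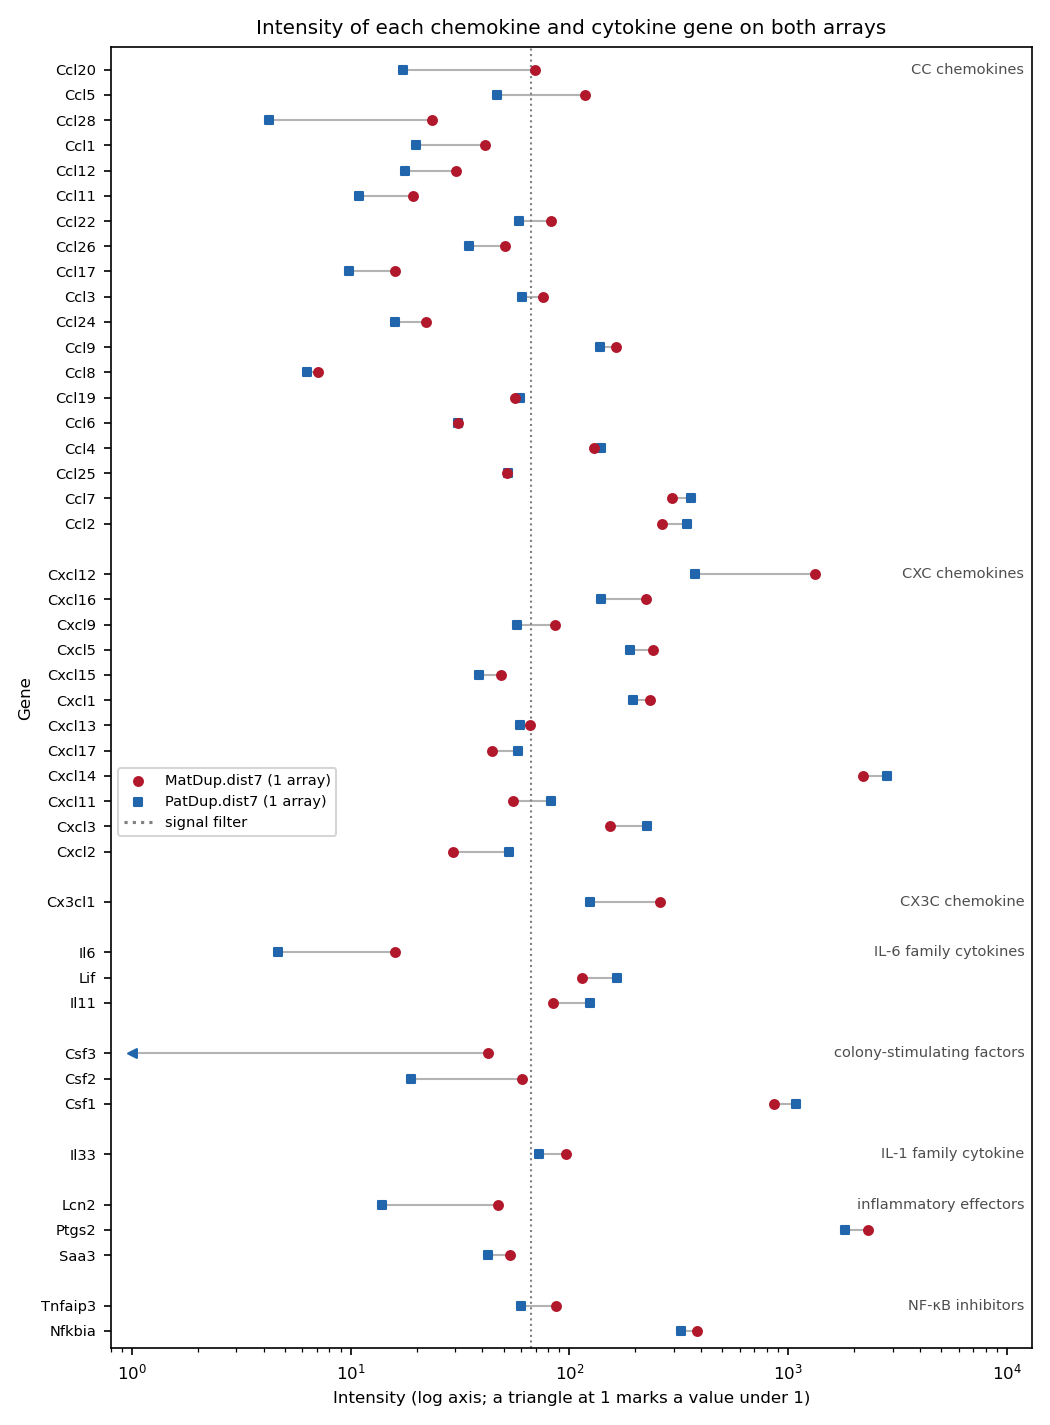
Intensity of each of the 44 genes on the MatDup.dist7 array (circles) and the PatDup.dist7 array (squares) on a log axis, grouped by role and ordered by difference, with the signal filter as a dotted line. Each point is 1 array, and for Ccl19 and Ccl25 the mean of their probe sets. Cxcl12 shows the widest gap among genes with both signals above the filter, and the triangle marks the Csf3 value under 1 in PatDup.dist7 MEFs.

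The colony-stimulating factor genes had differences of both signs. Csf3, which encodes the granulocyte factor G-CSF, had 42.2 in MatDup.dist7 MEFs and was listed at 0.00124 in PatDup.dist7 MEFs. So low a value does not show that the transcript was missing, and the log2 difference of 1.86 became 5.43 with a pseudocount of 1 and 0.73 with 64. It was larger than that of Cxcl12 with a pseudocount of 16 and smaller with 64. Csf2, which encodes the granulocyte and macrophage factor GM-CSF, had 61.0 in MatDup.dist7 MEFs and 18.8 in PatDup.dist7 MEFs (1.14). Csf1, the macrophage growth factor that fibroblasts secrete, had 862 in MatDup.dist7 MEFs and 1081 in PatDup.dist7 MEFs (-0.32), both above the filter. Csf2 and Csf3 lie far apart on chromosome 11, at places 348 and 1106 of the 1563 measured genes in order.

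No gene of the interleukin 6 family was 2-fold apart. Il6, the family's acute-phase member, had 15.9 in MatDup.dist7 MEFs and 4.63 in PatDup.dist7 MEFs, a difference of 0.63 between signals under the filter. Il11 and Lif, which signal through the same receptor subunit, were lower in MatDup.dist7. Il11 had 83.9 in MatDup.dist7 MEFs and 124 in PatDup.dist7 MEFs (-0.49), and Lif had 114 in MatDup.dist7 MEFs and 165 in PatDup.dist7 MEFs (-0.47). Il33, a nuclear alarmin of the interleukin 1 family, had 96.4 in MatDup.dist7 MEFs and 72.4 in PatDup.dist7 MEFs (0.35).

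All 3 inflammatory effector genes and both NF-κB inhibitor genes had positive differences, 1 of the 5 at least 2-fold. Lcn2 had 47.3 in MatDup.dist7 MEFs and 13.9 in PatDup.dist7 MEFs (1.08). Ptgs2, the inducible cyclooxygenase of prostaglandin synthesis, had high signal on both arrays, 2308.5 in MatDup.dist7 MEFs and 1809 in PatDup.dist7 MEFs (0.35). Saa3, an acute-phase serum amyloid gene, had 53.5 in MatDup.dist7 MEFs and 42.6 in PatDup.dist7 MEFs (0.25). Nfkbia, which encodes the inhibitor IκBα, had 384 in MatDup.dist7 MEFs and 324 in PatDup.dist7 MEFs (0.23). Tnfaip3, which encodes the ubiquitin-editing enzyme A20, had 86.5 in MatDup.dist7 MEFs and 59.9 in PatDup.dist7 MEFs (0.43). Both inhibitor genes thus differed by about the spread between probe sets or less.

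**Figure D3:**
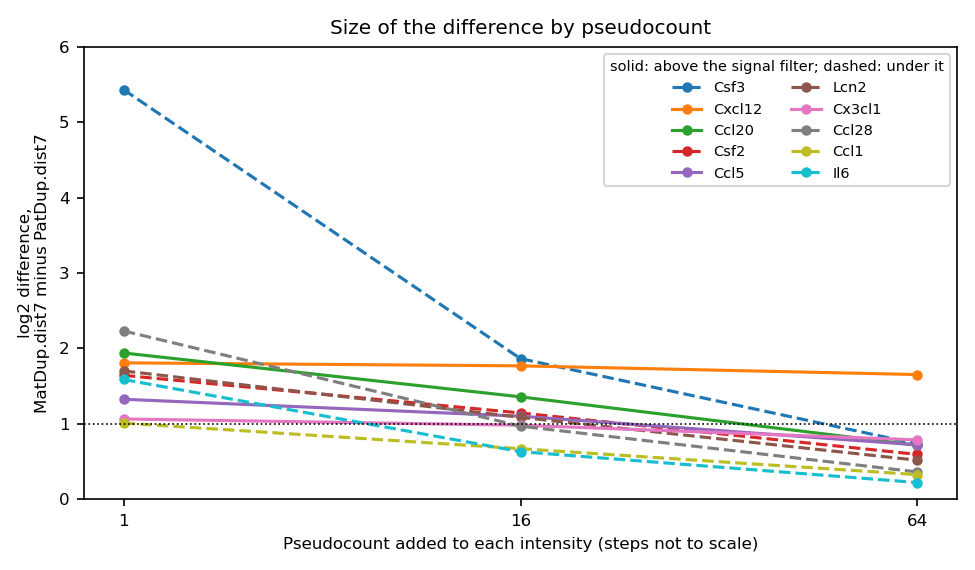
Log2 difference, MatDup.dist7 minus PatDup.dist7, of the 10 members 2-fold or more apart with a pseudocount of 16 or of 1, at pseudocounts of 1, 16 and 64. Cxcl12 stays between 1.65 and 1.81, and Csf3 runs from 5.43 to 0.73.

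Many chemokine genes lie in tandem clusters, and in 4 of the 6 chromosomal groups described here neighbours differed in sign. Along chromosome 11, the consecutive measured genes Ccl2, Ccl7, Ccl11, Ccl12, Ccl8 and Ccl1 had differences of -0.37, -0.27, 0.39, 0.46, 0.05 and 0.67. In the second group of that chromosome, Ccl5 stood at 1.10 and the following members Ccl9, Ccl6, Ccl3 and Ccl4 between -0.09 and 0.26. On chromosome 5, the consecutive genes Cxcl3, Cxcl15, Cxcl1 and Cxcl2 had differences of -0.53, 0.24, 0.23 and -0.60. On chromosome 8, Ccl22, Cx3cl1 and Ccl17 were consecutive and all positive, with a median of 0.39. Ppbp and Pf4, platelet chemokine genes of the chromosome 5 cluster whose symbols do not follow the series, lie between Cxcl5 and Cxcl3. Ppbp had 459 in MatDup.dist7 MEFs and 24.0 in PatDup.dist7 MEFs (3.57), and Pf4 had 93.9 in MatDup.dist7 MEFs and 298 in PatDup.dist7 MEFs (-1.51). Neither Cxcl5 nor Cxcl3 on either side of them was 2-fold apart.

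**Figure D4:**
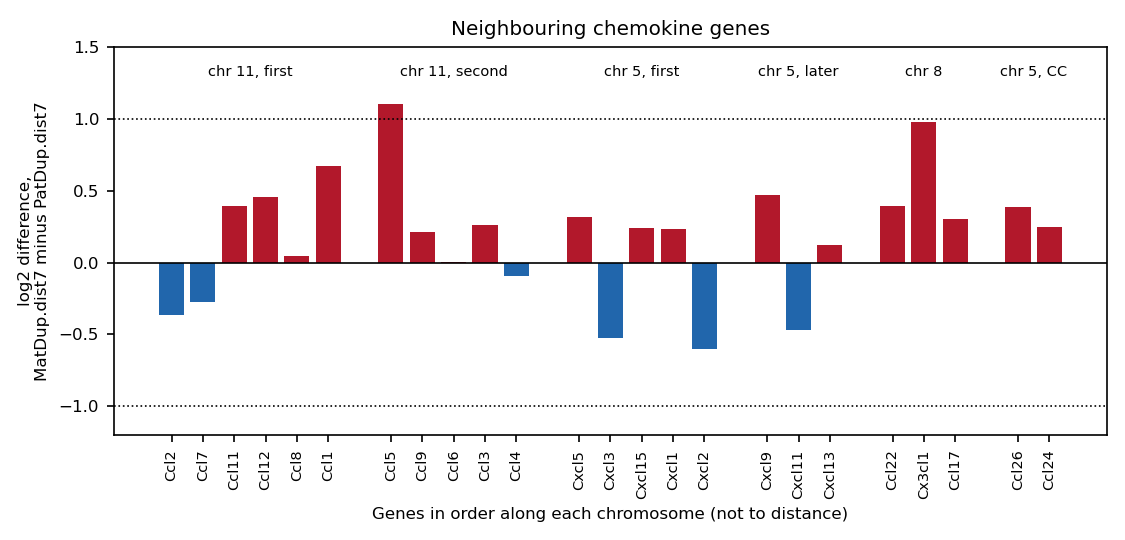
Log2 difference, MatDup.dist7 minus PatDup.dist7, of the members in 6 chromosomal groups, drawn in gene order and not to distance, with 2-fold as dotted lines. Red bars are positive and blue bars negative, and both colours occur in each of the first 4 groups.

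Members on chromosome 7 were Il11, Cxcl17 and Saa3, none of them 2-fold apart. They stand at places 42, 333 and 714 of the 1734 measured genes in order along the chromosome, and the imprinted genes Igf2 and Cdkn1c at places 1695 and 1707. Where the duplication begins is not known here, so none of the 3 was assigned to it. The 6 members that were 2-fold or more apart lie on chromosomes 1, 2, 6 and 11.

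Receptors were set beside their ligands from lists of receptor genes. Of 22 measured chemokine receptor genes, 1 was higher by 2-fold or more in MatDup.dist7, 2 in PatDup.dist7 MEFs and 19 lay within 2-fold, with a median of -0.09. The 3 apart, Ccr9 (51.7 in MatDup.dist7 MEFs and 10.6 in PatDup.dist7 MEFs, 1.35), Xcr1 (21.8 and 63.3, -1.07) and Ccr1 (0.00347 and 16.7, -1.03), all lay under the signal filter. Cxcr4, the signalling receptor of Cxcl12, had 142 in MatDup.dist7 MEFs and 224 in PatDup.dist7 MEFs (-0.61), opposite in sign to its ligand. Ackr3, the scavenging receptor of Cxcl12, had 77.2 in MatDup.dist7 MEFs and 64 in PatDup.dist7 MEFs (0.22). Ccr6, the receptor of Ccl20, had 4.29 in MatDup.dist7 MEFs and 9.64 in PatDup.dist7 MEFs (-0.34). Ccr3, which binds Ccl5, had 56.2 and 59.1 in the same order (-0.06). Cx3cr1, the receptor of Cx3cl1, had 308 in MatDup.dist7 MEFs and 290.2 in PatDup.dist7 MEFs (0.08).

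Of 14 measured cytokine and prostaglandin receptor genes, 1 was higher by 2-fold or more in MatDup.dist7 and 2 in PatDup.dist7 MEFs, with a median of 0.22. The first was Csf3r, the receptor of Csf3, with 75.3 in MatDup.dist7 MEFs and 9.92 in PatDup.dist7 MEFs (1.82). Ligand and receptor were both higher on the MatDup.dist7 array, but from weak signals. Csf3r passed the filter only through that array, and Csf3 lay under it on both. Il1rap, the shared co-receptor for interleukins 1 and 33, had 15.4 in MatDup.dist7 MEFs and 74.7 in PatDup.dist7 MEFs (-1.53). It passed the filter only through the PatDup.dist7 array. Ptger2, a prostaglandin E2 receptor gene, had 18.9 in MatDup.dist7 MEFs and 63.6 in PatDup.dist7 MEFs (-1.19), under the filter. The receptor genes of Csf2 lay within 2-fold: Csf2ra had 88.8 in MatDup.dist7 MEFs and 131 in PatDup.dist7 MEFs (-0.49), and Csf2rb had 126 and 150 in the same order (-0.23). Il6st, the shared signal transducer of the interleukin 6 family, had 604 in MatDup.dist7 MEFs and 488 in PatDup.dist7 MEFs (0.30).

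Of 19 measured NF-κB subunit and regulator genes, 13 had a negative difference, 1 was higher by 2-fold or more in MatDup.dist7 and 1 in PatDup.dist7 MEFs, with a median of -0.29. Traf1, an adaptor of tumour necrosis factor receptors, had 56.8 in MatDup.dist7 MEFs and 7.17 in PatDup.dist7 MEFs (1.65), under the filter. Bcl3, a nuclear cofactor of NF-κB, had 10.0 in MatDup.dist7 MEFs and 70.3 in PatDup.dist7 MEFs (-1.73). It passed the filter only through the PatDup.dist7 array. The subunit gene Rela had 578 in MatDup.dist7 MEFs and 709 in PatDup.dist7 MEFs (-0.29), and Relb, of the alternative pathway, 462 and 241 in the same order (0.89). None of 18 upstream signal and receptor genes was 2-fold apart, and their median was -0.11; Tnf, a main inducer of these chemokines, had 183 in MatDup.dist7 MEFs and 89.99 in PatDup.dist7 MEFs (0.91).

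Of 20 other measured genes known as NF-κB targets or fibroblast inflammatory genes, 1 was higher by 2-fold or more in MatDup.dist7 and 2 in PatDup.dist7 MEFs, with a median of -0.09. Zc3h12a, which encodes an RNase that degrades cytokine messages, had 51.6 in MatDup.dist7 MEFs and 8.43 in PatDup.dist7 MEFs (1.47), under the filter. The matrix metalloproteinase genes Mmp13 and Mmp3 had 53.3 and 89.1 in MatDup.dist7 MEFs, against 256 and 342 in PatDup.dist7 MEFs (-1.97 and -1.77). Mmp13 passed the filter only through the PatDup.dist7 array. A positive median was thus not shared by these targets or by the NF-κB subunits, although the lists were not tested against each other.

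**Figure D5:**
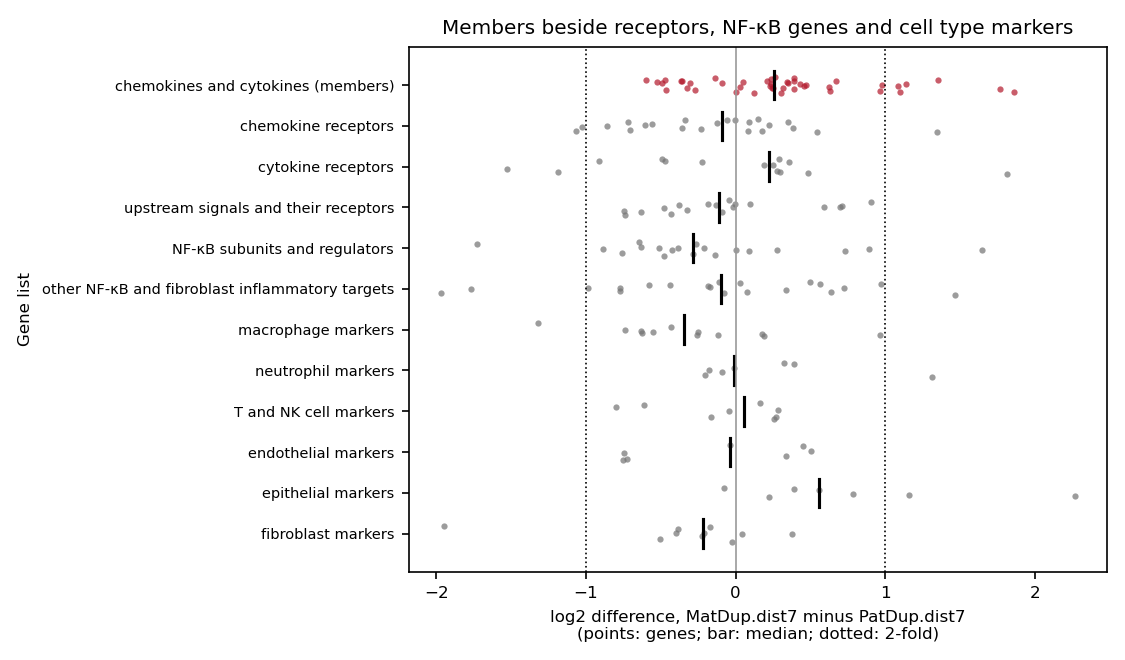
Log2 difference, MatDup.dist7 minus PatDup.dist7, of each gene (points) and the median (bar) for the 44 members, 5 lists of receptor and NF-κB genes and 6 lists of cell type markers, with 2-fold as dotted lines. The members' median is 0.26, that of the epithelial list 0.56 and that of the cytokine receptors 0.22. The medians of the NF-κB, macrophage and fibroblast lists are negative.

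Markers of other cells were read beside these values, since leukocytes and epithelia also make chemokines. In such bulk RNA, a smaller share of cells of a type and less RNA per cell cannot be told apart. Over all genes, 51.4% had a positive difference, 4.47% were higher by 2-fold or more in MatDup.dist7 and 3.16% in PatDup.dist7. Positive shares were 20% for the fibroblast list, 25% for the macrophage list and 85.7% for the epithelial list. Of 10 fibroblast markers 9 lay above the filter and 8 had a negative difference, 1 of them, Dcn, of at least 2-fold. Dcn, which encodes the matrix proteoglycan decorin, had 142 in MatDup.dist7 MEFs and 592 in PatDup.dist7 MEFs (-1.95). The fibroblast list had summed intensities of 41505 in MatDup.dist7 MEFs and 48058 in PatDup.dist7 MEFs. Of 12 macrophage markers 11 lay above the filter, 9 had a negative difference and 1 was at least 2-fold lower in MatDup.dist7, the mannose receptor gene Mrc1 with 31.7 in MatDup.dist7 MEFs and 103 in PatDup.dist7 MEFs (-1.32). Mrc1 passed the filter only through the PatDup.dist7 array. The summed intensity of the macrophage markers was 6021 in MatDup.dist7 MEFs and 6915 in PatDup.dist7 MEFs. The 3 with a positive difference were Adgre1, with 548 in MatDup.dist7 MEFs and 273 in PatDup.dist7 MEFs (0.96), Csf1r (0.19) and Lyz2 (0.18). The part of macrophages in the chemokine differences was not tested. Of 8 T and NK cell markers 5 lay above the filter, with sums of 2165 in MatDup.dist7 MEFs and 1905 in PatDup.dist7 MEFs and none 2-fold apart, the widest being Il7r (-0.80). Of 7 endothelial markers 2 lay above it, with sums of 414 in MatDup.dist7 MEFs and 439 in PatDup.dist7 MEFs, and none was 2-fold apart, the widest being Kdr (-0.75). All 7 neutrophil markers lay under it, with sums of 191 in MatDup.dist7 MEFs and 161 in PatDup.dist7 MEFs, and Elane, the 1 of them 2-fold apart, had 23.9 in MatDup.dist7 MEFs and was near 0 in PatDup.dist7 MEFs (0.0160). Of 7 epithelial markers 5 lay above the filter and 6 had a positive difference, which reached 2-fold for Krt19 and Krt5. Their median difference, 0.56, was larger than that of the members. Their sum was 785 in MatDup.dist7 MEFs and 445 in PatDup.dist7 MEFs, with Krt19 at 152 and 18.8 in the same order (2.27). Krt19 passed the filter only through the MatDup.dist7 array, and Krt5 lay under it. Of the 7 epithelial markers, 6 were higher on the same array as Ccl20, Ccl28 and Lcn2, which epithelia express. Ccl28 and Lcn2 lay under the filter. Among other members known from epithelia or mucosa, Cxcl14 (-0.36), Cxcl17 (-0.31) and Ccl25 (mean -0.14) had a negative difference. The probe sets of Ccl25 differed in sign (0.30 and -0.57), and the lung chemokine gene Cxcl15 was positive (0.24). Of Cxcl14, Cxcl17, Ccl25 and Cxcl15, only Cxcl14 lay above the filter. The part of epithelial cells in these differences was not tested. Of 5 platelet markers, which include Ppbp and Pf4, 1 was higher by 2-fold or more in MatDup.dist7 and 1 in PatDup.dist7 MEFs, with sums of 745 in MatDup.dist7 MEFs and 567 in PatDup.dist7 MEFs.

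Transcripts of the sex chromosomes also differed between the arrays. Eif2s3y, Uty and Kdm5d of the Y chromosome had 112, 77.9 and 122 in MatDup.dist7 MEFs, against 6.44, 2.61 and 22.9 in PatDup.dist7 MEFs, and Xist had 0.00166 in MatDup.dist7 MEFs and 91.2 in PatDup.dist7 MEFs. Sex and genotype cannot be told apart for any member. The median intensity of all probe sets was 68.6 in MatDup.dist7 MEFs and 64.2 in PatDup.dist7 MEFs.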

How the data were processed

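Total RNA of 1 MatDup.dist7 and 1 PatDup.dist7 MEF sample was biotin-labelled and hybridised to 1 array each, per the labels' protocols. The deposited table holds 1 linear intensity per probe set and array; Affymetrix Expression Console is the software in the submitters' processing notes, with no account there of background correction, summarisation or normalisation. No detection calls were used, and precision is limited by the number of arrays. Of 35557 probe sets, 21789 had 1 symbol, 1621 several and 12147 none. Gene identifiers of 21698 of the 21789 were found in the GRCm38.p6 gene table, which gave current symbols and gene order. The array's build is not given, so no gene coordinates are printed, and those of promoter windows are RefSeq's. In 7 probe sets, Ccl21 or Ccl27 genes shared several symbols and were not used.

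From the intensities, log2(intensity + 16) was computed and averaged over the probe sets of a gene (Python 3.11.15, numpy 2.4.6, pandas 2.3.3). Intensities printed for a gene are means of its probe sets. With 1 array per genotype no test was possible, so counts past 2-fold stand beside the same count over all genes. Members and lists were chosen with earlier results of these data known. Members 2-fold apart are described in full. From each other list, up to 4 genes 2-fold or more apart are named, or that with the largest difference, and the receptors of such members; further genes given as examples were chosen after their values were seen. Csf1r and Cd14 are each in 2 lists, as are Ppbp and Pf4. The calculation was tested on simulated data. The alternatives were pseudocounts of 1 and 64, a floor, quantile normalisation, median centring, the signal filter, 2 other treatments of probe sets and a 3-fold rule.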

Additional observations from a re-analysis of the deposited data

How the results depend on the processing

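The 6 members higher by 2-fold or more in MatDup.dist7 became 10 with a pseudocount of 1 and 1 with a pseudocount of 64. Under the same settings 10.9% and 0.466% of all genes were higher by 2-fold or more in MatDup.dist7. A 3-fold rule left 2, where 0.818% of all genes were so. The signal filter left 3, but Ccl20 and Ccl5 pass it only through the MatDup.dist7 array, and of these 3 only Cxcl12 lies above it on both arrays. The number was 6 with a floor at the 25th percentile, quantile normalisation, median centring or the brightest probe set of each gene, and 5 without probe sets under 1, which removes Csf3. No member was higher by 2-fold or more in PatDup.dist7 under any of these 9 settings. The members' median difference lay between 0.17 and 0.33 in the 8 settings that can change it. The signal filter and the removal of probe sets under 1 leave members out and change no remaining value. The brightest probe set can change only Ccl19 and Ccl25. Many of the 331 values of single members were thus fixed beforehand, so their count does not measure stability. Of the 331, 320 kept their direction or lay within 2-fold as before, 5 newly passed 2-fold and 6 no longer did. Those lost were Ccl20, Ccl5, Csf2, Csf3 and Lcn2 with a pseudocount of 64, and Csf3 with the floor (0.94). Those gained with a pseudocount of 1 were Ccl28, Il6, Cx3cl1 and Ccl1, and Cx3cl1 also passed with the floor. The sign of Ccl19, Ccl6 and Ccl25, all within 2-fold, turned under at least 1 setting. No paired analysis was possible because each genotype had 1 array. Weak signal limits Csf2, Csf3, Lcn2, Ccl28 and Il6 in particular.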

Other observations

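Probe sets annotated to several near-identical chemokine genes were left out of the counts. The 4 probe sets shared by the Ccl21 genes, lymphoid-tissue chemokines, had intensities from 73.2 to 88.7 in MatDup.dist7 MEFs and from 45.6 to 79.1 in PatDup.dist7 MEFs, with differences from 0.14 to 0.53. The 3 shared by the Ccl27 genes, skin chemokines, had from 26.8 to 112 in MatDup.dist7 MEFs and from 35.9 to 73.8 in PatDup.dist7 MEFs, with differences of -0.28, the same value at 2 of them, and 0.51. None was 2-fold apart. Xcl1, a lymphocyte chemokine gene outside the rule, had 105 in MatDup.dist7 MEFs and 71.0 in PatDup.dist7 MEFs (0.47).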
